A study of Sus scrofa with 2 samples.

Results

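The genes described here coat the lipid droplet of fat cells or act in lipolysis, the release of fatty acids and glycerol from stored triglyceride: PLIN1, PLIN2, CIDEC, PNPLA3, MGLL, AQP7 and PDE3B. They were chosen by name in the mRNA table of backfat, and 7 of the 2247 genes listed there are members, with 10 of the 2645 listed transcripts. 6 of these names stand in the table, and PNPLA3 is listed as LOC100049690 and was matched by gene ID and transcript accession. The groups were castrated male Huainan pigs and intact male Huainan pigs, all aged 300 days and on the same standard diet, with 3 pigs in each group. Backfat is the subcutaneous adipose tissue along the back, and its total RNA was sequenced after removal of ribosomal RNA. Each group is 1 sample with 1 value per transcript, in FPKM, the number of fragments scaled to transcript length and library size. Whether the RNA of the 3 pigs was pooled or their values were averaged is not stated, so no value has a spread between animals and no difference could be tested.

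In a fat cell, triglyceride sits in a droplet whose surface proteins decide which lipases reach it. Perilipins cover the surface, CIDEC lets droplets fuse into one large droplet, and lipases remove fatty acids from the glycerol backbone in turn, MGLL acting on the last one. Cyclic AMP drives this breakdown, insulin restrains it through the phosphodiesterase PDE3B, and the glycerol leaves the cell through the channel AQP7.

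Levels of 6 of the 7 genes were higher in backfat of castrated pigs than in backfat of intact pigs, from 2.56-fold for PLIN1 to 9.23-fold for PNPLA3 in FPKM summed over the listed transcripts of each gene. The lipase genes PNPLA3 and MGLL and the glycerol channel gene AQP7 showed larger ratios than the coat genes PLIN1 and CIDEC. Related coat and lipase genes described below did not all follow that order, and the order of the ratios was not tested. PLIN2, the perilipin found on droplets of most cell types, had nearly equal sums, made of 2 transcripts with opposite directions. A size rule was used in place of a test: a difference of 1 or more between log2(FPKM + 1) in the groups, that is 2-fold, where the higher group reached 1 FPKM. This scale understates the change of low genes. By that rule 6 member genes were higher, 0 were lower and 1 passed in neither direction, and of the member transcripts 9 were higher and 1 was lower.

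These counts have a high background. Of all listed genes 40.9% passed the rule as higher in castrated pigs and 39.3% as lower, and of all listed transcripts 42.6% passed as higher and 39.9% as lower. The table holds only transcripts that the authors called: each q-value in the authors' deposited table is under 0.05, and its smallest absolute log2 fold change was 1.15. A listed transcript therefore had to differ, and a gene without a listed transcript is not known to be unchanged. The median log2 difference was 1.59 over the 7 member genes, against 0.26 over all listed genes and 1.48 over the listed genes that passed as higher. The members were chosen with earlier results of these data known, so these medians describe them and are no independent evidence.

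**Figure D1:**
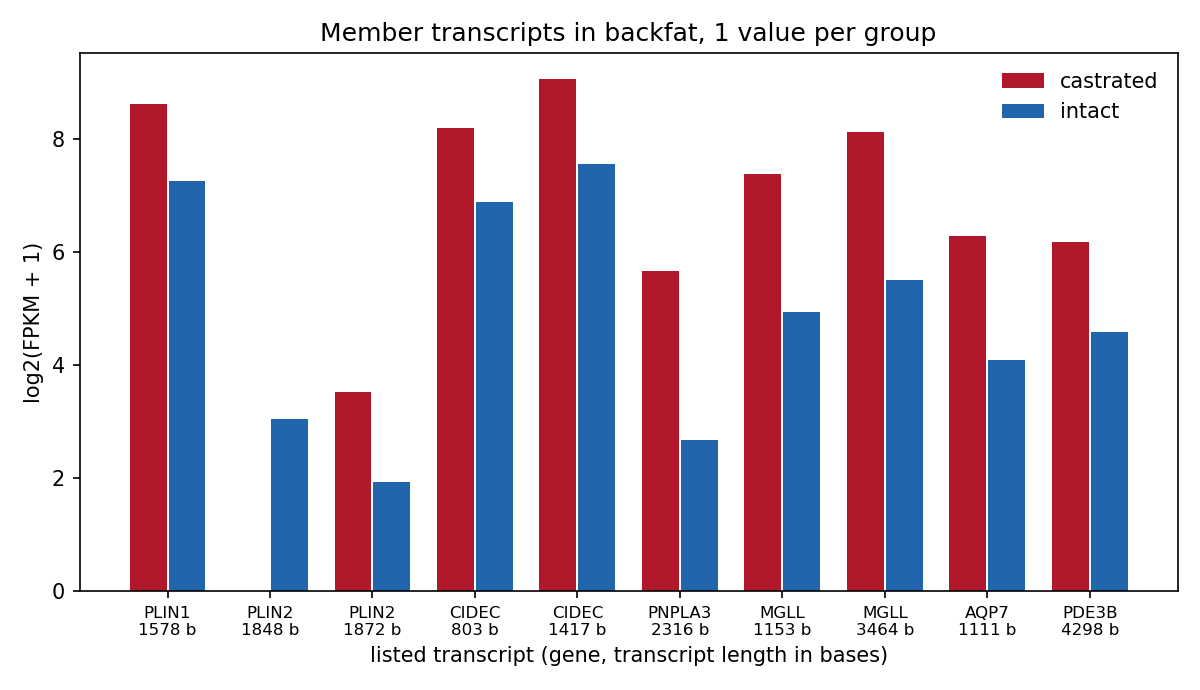
Level of each of the 10 listed member transcripts as log2(FPKM + 1) in castrated (red) and intact (blue) pigs, 1 value per bar and no error; the transcript length in bases stands under each gene name. The castrated bar is the taller in 9 pairs, and the 1848-base PLIN2 transcript has no castrated bar because it is listed at 0.

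Among the coat genes, PLIN1 encodes perilipin 1, which covers the droplets of fat cells and controls the access of lipases. Its single listed transcript (gene ID 654411, 1578 bases) stood at 392 FPKM in castrated pigs and 153 FPKM in intact pigs. That is 2.56-fold higher, or 1.35 on the log2(FPKM + 1) scale, the smallest of the 6 differences that passed. By level, that is FPKM summed over listed transcripts, PLIN1 ranked 24 of 2247 listed genes in castrated pigs and 58 in intact pigs. By that measure it was among the most abundant listed genes in both groups.

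CIDEC encodes the droplet fusion protein also known as FSP27, and it had the highest level of the 7 genes in both groups. Summed over its listed transcripts (gene ID 100127161) it stood at 828 FPKM in castrated pigs and 306 FPKM in intact pigs, 2.71-fold higher. The 1417-base transcript was at 537 FPKM in castrated pigs against 189 FPKM in intact pigs, and the 803-base transcript was at 291 FPKM in castrated pigs against 117 FPKM in intact pigs. Both transcripts were thus higher in castrated pigs, by 2.85-fold and 2.48-fold. The longer one held 64.9% of the gene's listed FPKM in castrated pigs and 61.7% in intact pigs, so the balance between them was similar.

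PLIN2 encodes perilipin 2, and it was the one coat gene whose listed transcripts went in opposite directions. The 1872-base transcript (gene ID 397402) was at 10.5 FPKM in castrated pigs and 2.82 FPKM in intact pigs, 3.73-fold higher. The 1848-base transcript was listed at 0 in castrated pigs and stood at 7.25 FPKM in intact pigs, so no ratio can be given. The lengths of these transcripts differ by 24 bases, and how reads common to both were divided between them is not stated. Their sums were 10.5 FPKM in castrated pigs and 10.1 FPKM in intact pigs, a log2 difference of 0.06. By these sums PLIN2 was also the lowest of the 7 genes in castrated pigs, ranked 635 of 2247. Transcripts that the authors did not call are missing from the sums, so the total level of PLIN2 is not known. Opposite directions were common in the table: 110 of the 301 named genes with more than 1 listed transcript (36.5%) had them. The table lists 229 transcripts at 0 in castrated pigs and 318 at 0 in intact pigs.

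Among the lipase genes, PNPLA3 encodes a patatin-like protein of the droplet surface that is related to the main triglyceride lipase of fat cells. Its single listed transcript (gene ID 100049690, 2316 bases) stood at 49.9 FPKM in castrated pigs and 5.41 FPKM in intact pigs. The ratio of 9.23 and the log2 difference of 2.99 were the largest of the 7 genes, and the difference ranked 33 of 2247. In intact pigs PNPLA3 had the lowest level of the 7 genes, ranked 918, while in castrated pigs it ranked 245.

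MGLL encodes monoacylglycerol lipase, which frees the last fatty acid and also breaks down an endocannabinoid. Summed over its listed transcripts (gene ID 100233193) it stood at 445 FPKM in castrated pigs and 74.2 FPKM in intact pigs, 5.99-fold higher. The 3464-base transcript was at 278 FPKM in castrated pigs against 44.6 FPKM in intact pigs. The 1153-base transcript was at 167 FPKM in castrated pigs against 29.6 FPKM in intact pigs. The ratios were 6.23 and 5.63, and the longer transcript held 62.5% of the gene's listed FPKM in castrated pigs and 60.1% in intact pigs. By level MGLL ranked 21 in castrated pigs, above PLIN1, and 139 in intact pigs, below it.

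AQP7 encodes aquaglyceroporin 7, the channel through which glycerol leaves fat cells. Its listed transcript (gene ID 100126283, 1111 bases) stood at 77.4 FPKM in castrated pigs and 16.0 FPKM in intact pigs, 4.83-fold higher, and its log2 difference of 2.20 ranked 103 of 2247. PDE3B encodes the phosphodiesterase that breaks down cyclic AMP in response to insulin. Its listed transcript (gene ID 100516060, 4298 bases) stood at 71.2 FPKM in castrated pigs and 23.0 FPKM in intact pigs, 3.10-fold higher. AQP7 and PDE3B were close in level in castrated pigs, while in intact pigs AQP7 was the lower.

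Ordered by level in castrated pigs, CIDEC came first, followed by MGLL, PLIN1, AQP7, PDE3B, PNPLA3 and PLIN2. In intact pigs the order was CIDEC, PLIN1, MGLL, PDE3B, AQP7, PLIN2 and PNPLA3. These orders cover listed transcripts only and may not be those of total expression. With 1 value per group it cannot be said which neighbours in these orders differ. For the same reason the q-values that follow cover no spread between animals. Every listed transcript has a q-value under 0.05, so passing that limit sets no member apart. In the authors' deposited table the q-values of the member transcripts ran from 9.14e-10 for PNPLA3 to 0.0473 for PLIN1, which is close to the limit of 0.05. The 1848-base PLIN2 transcript had a q-value of 0.00109 and the 1872-base one 0.00869 in the authors' deposited table.

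**Figure D2:**
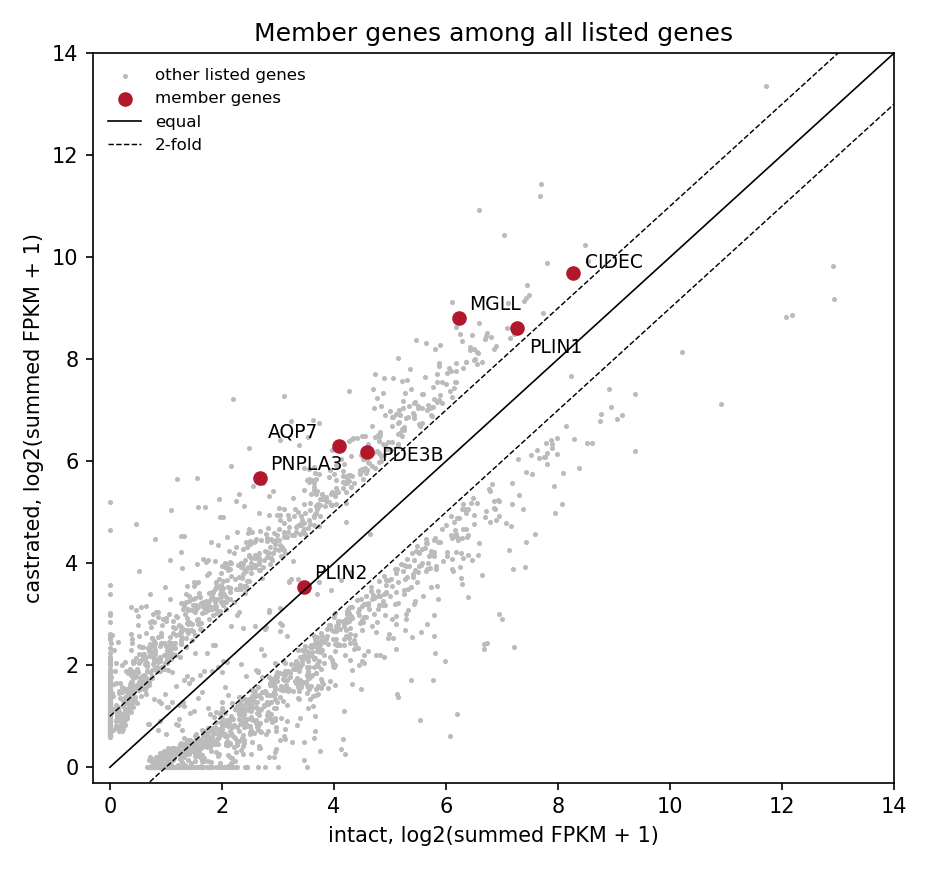
Summed FPKM of each of the 2247 listed genes as log2(FPKM + 1), castrated on the vertical and intact on the horizontal axis, with equality as a solid line and 2-fold as dashed lines; the 7 member genes are red. PLIN2 lies on the line of equality and the other 6 lie above the upper dashed line, PNPLA3 and MGLL farthest from it.

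The share of all listed genes that passed depends on the scale. The median log2 difference over listed genes with at least 1 FPKM in both groups was 0.43, and over listed transcripts 1.14. As the table is restricted to called transcripts, these medians are not an estimate of a difference in scale between the libraries. The transcript median lies close to 1.15, the smallest absolute log2 fold change listed, so it largely reflects that restriction. Relative to the gene median, PNPLA3 was at 2.56, MGLL at 2.13, AQP7 at 1.77 and PDE3B at 1.16, while CIDEC at 0.9996 and PLIN1 at 0.92 were no longer past the 2-fold rule. PLIN2 was at -0.38 relative to it. Relative to the transcript median, 4 member transcripts stayed past the rule as higher, those of PNPLA3 at 1.85, MGLL at 1.48 and 1.32 and AQP7 at 1.07, while PDE3B at 0.45 no longer passed. Relative to the gene median, 22.3% of listed genes passed as higher in castrated pigs and 43.3% as lower. The share of listed transcripts that passed relative to the transcript median was not computed. The count of 4 member transcripts thus has no background beside it and is not read as a result. PDE3B, with 1 listed transcript, passed relative to the gene median and not relative to the transcript median, on the same values.

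Genes near the members in function were taken from 4 lists of 100 genes in all, of which 24 had a listed transcript. By the size rule 17 of the 24 were higher in castrated pigs and 7 lower, with a median log2 difference of 1.37, beside 40.9% higher and 39.3% lower among all listed genes. Since a listed gene had been called by the authors, that every one of the 24 passed in one direction or the other is largely set by the selection of the table. In 3 of the lists, on droplet coat and formation, on lipases and their cofactors, and on glycerol and fatty acid handling, 13 of 14 listed genes were higher. The genes of lipolytic signalling were divided, 4 higher and 6 lower. Counting the other 3 lists together without this one was not planned.

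Of 24 genes of droplet coat and formation, 3 were listed and all 3 were higher. PLIN4, a further perilipin of fat cells, stood at 359.8 FPKM in castrated pigs and 75.2 FPKM in intact pigs, 4.78-fold higher. G0S2, an inhibitor of the main triglyceride lipase, stood at 41.6 FPKM in castrated pigs and 11.9 FPKM in intact pigs. RAB18, a small GTPase found on droplets, stood at 3.41 FPKM in castrated pigs and 0.839 FPKM in intact pigs. PLIN3, PLIN5 and CIDEA had no listed transcript.

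Of 21 lipases and cofactors, 5 were listed and all 5 were higher. CES1, a carboxylesterase of a family whose similar copies could share reads, stood at 291 FPKM in castrated pigs and 55.1 FPKM in intact pigs, 5.28-fold higher. LIPA, the lysosomal acid lipase, stood at 132 FPKM in castrated pigs and 52.8 FPKM in intact pigs. ABHD6, another hydrolase of monoacylglycerol, stood at 28.3 FPKM in castrated pigs and 8.16 FPKM in intact pigs, below MGLL in both groups. LIPG, the endothelial lipase, stood at 8.82 FPKM in castrated pigs and 1.11 FPKM in intact pigs. PNPLA8, a phospholipase of the family of PNPLA3, stood at 5.04 FPKM in castrated pigs and was listed at 0 in intact pigs. PNPLA2, the main triglyceride lipase, its activator ABHD5 and the hormone-sensitive lipase LIPE had no listed transcript, so the table gives no level for the enzymes of the first steps. The median log2 difference of this list was 2.22, and 1.95 without PNPLA8.

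Of 38 genes of lipolytic signalling, 10 were listed. Receptors that lower cyclic AMP in fat cells went in both directions. ADRA2A, the alpha-2A adrenergic receptor, stood at 0.532 FPKM in castrated pigs and 7.64 FPKM in intact pigs, 14.4-fold lower. That ratio rests on a value under 1 FPKM, and on the log2(FPKM + 1) scale the difference was -2.50. PTGER3, a prostaglandin E receptor, stood at 3.50 FPKM in castrated pigs and 14.2 FPKM in intact pigs, and NPY1R, a neuropeptide Y receptor, at 0.121 FPKM in castrated pigs and 1.38 FPKM in intact pigs. ADORA1, the adenosine A1 receptor, was higher, at 39.8 FPKM in castrated pigs and 11.0 FPKM in intact pigs. 3 of these 4 receptors were therefore lower in castrated pigs, beside 39.3% of all listed genes. This group of 4 was not among the planned lists, and NPY1R was low in both groups.

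The phosphodiesterases beside PDE3B were also divided. PDE8B stood at 29.8 FPKM in castrated pigs and 7.21 FPKM in intact pigs, while PDE4D stood at 2.35 FPKM in castrated pigs and 9.14 FPKM in intact pigs. ADCY6, an adenylyl cyclase, which makes cyclic AMP, stood at 14.8 FPKM in castrated pigs and 6.24 FPKM in intact pigs. Of the insulin pathway that acts on PDE3B, the kinase gene AKT2 stood at 148 FPKM in castrated pigs and 54.1 FPKM in intact pigs, and the adaptor gene IRS1 at 5.73 FPKM in castrated pigs and 14.2 FPKM in intact pigs. PRKG1, the cyclic GMP-dependent kinase, stood at 2.65 FPKM in castrated pigs and 10.7 FPKM in intact pigs. The kinase genes PRKACA and PRKAR2B had no listed transcript. With a pseudocount of 5 this list held 3 higher and 3 lower genes, since several of its members are low.

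Of 17 genes of glycerol and fatty acid handling, 6 were listed, 5 higher and 1 lower, and after median centring 3 were higher. The exception was AQP3, a channel for glycerol and water like AQP7, at 36.9 FPKM in castrated pigs and 121 FPKM in intact pigs, 3.29-fold lower. The order of these channel genes by level thus differed between the groups, AQP7 being above AQP3 in castrated pigs and below it in intact pigs. FABP3, a fatty acid carrier, had the highest level on the list, at 10448 FPKM in castrated pigs and 3338 FPKM in intact pigs. ACSL1, which activates fatty acids, stood at 701 FPKM in castrated pigs and 173 FPKM in intact pigs. CD36, a fatty acid transporter, stood at 29.2 FPKM in castrated pigs and 8.74 FPKM in intact pigs. GPD1, which makes glycerol phosphate, stood at 357 FPKM in castrated pigs and 148 FPKM in intact pigs. GK, the glycerol kinase, stood at 1.06 FPKM in castrated pigs and was listed at 0 in intact pigs.

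**Figure D3:**
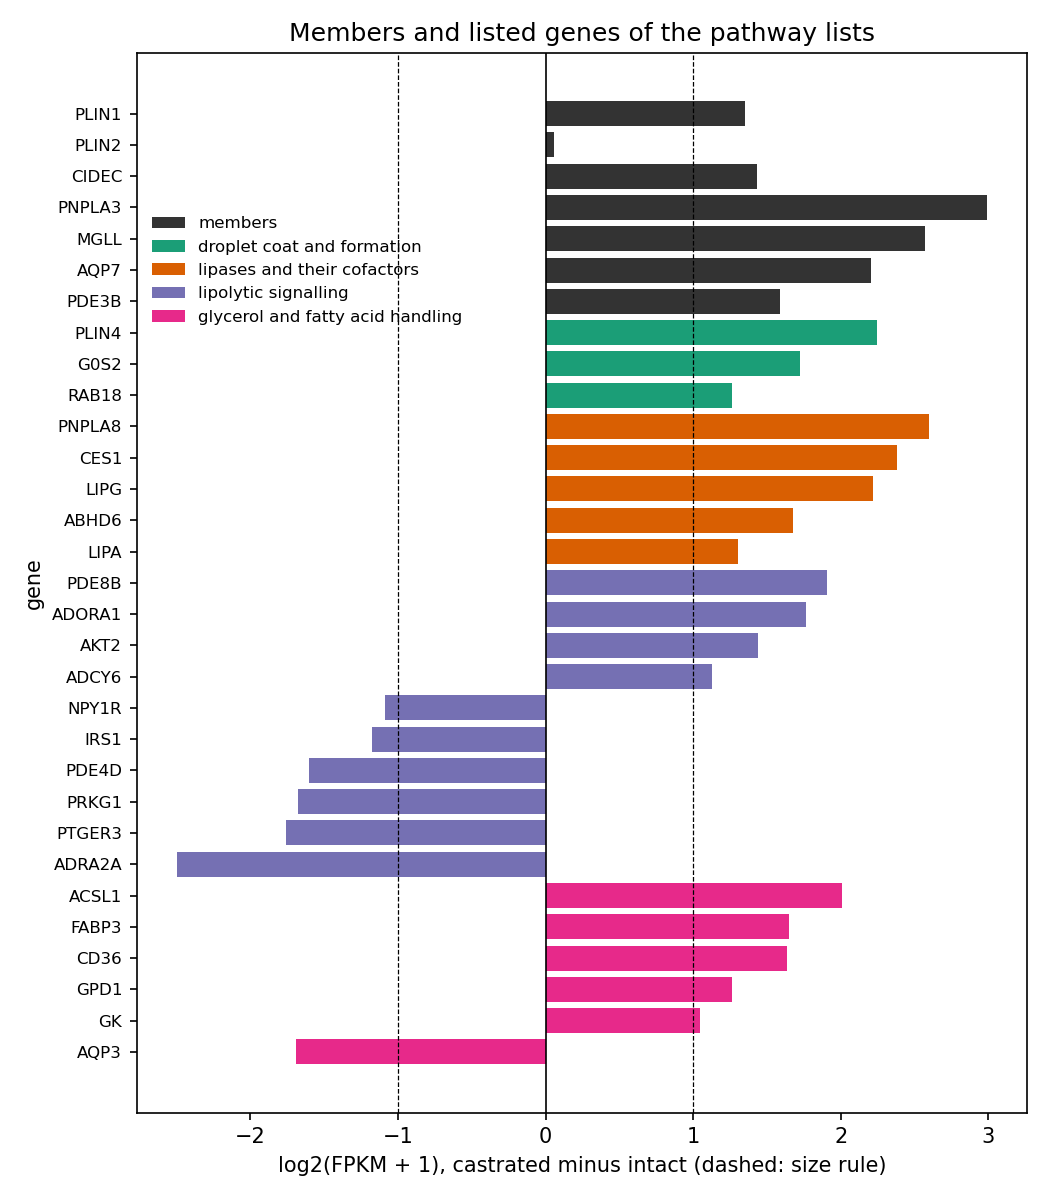
Difference on the log2(FPKM + 1) scale, castrated minus intact, of the 7 member genes (black) and of the 24 listed genes of the 4 pathway lists (coloured by list); dashed lines mark the size rule. Bars point to higher levels in castrated pigs except for PLIN2, which is near 0, and for AQP3 and 6 genes of lipolytic signalling, which point to lower levels.

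The authors' deposited table assigns KEGG pathways to 5 of the 7 genes. The pathways named below were picked by hand and may not be all of those assigned. Their other listed genes were counted, a choice made after values were seen. The PPAR signalling pathway, which holds PLIN1 and AQP7, had 15 other listed genes, of which 12 were higher and 2 lower in castrated pigs by the size rule. Among the higher ones the nuclear receptor gene PPARD stood at 30.5 FPKM in castrated pigs and 5.30 FPKM in intact pigs. PPARA stood at 22.4 FPKM in castrated pigs and 8.54 FPKM in intact pigs, and RXRG at 15.0 FPKM and 3.15 FPKM. The 2 lower ones were PCK1, at 37.8 FPKM in castrated pigs and 88.4 FPKM in intact pigs, and CYP7A1, at 0.874 FPKM and 4.32 FPKM. Glycerolipid metabolism, which holds PNPLA3 and MGLL, had 14 other listed genes, 11 higher and 2 lower, with PPAP2B, a lipid phosphate phosphatase gene, lower at 81.1 FPKM in castrated pigs and 387 FPKM in intact pigs. The cyclic AMP pathway, which holds PDE3B, had 26 other listed genes, 10 higher and 12 lower, and insulin signalling, which also holds PDE3B, had 27 others, 11 higher and 6 lower. Of all listed genes with a KEGG pathway 47.4% passed as higher and 34.6% as lower, and their median log2 difference was 0.81. The medians of the other genes were 1.34 for PPAR signalling, 1.29 for glycerolipid metabolism, -0.83 for cyclic AMP and 0.66 for insulin signalling, with no test.

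For each member the gene nearest to it by distance over log2(FPKM + 1) in the 2 groups was looked up, which compares level and difference together over 2 values only. GPD1 lay nearest to PLIN1, at a distance of 0.14. INSIG1, a regulator of sterol synthesis, lay nearest to AQP7, at 73.2 FPKM in castrated pigs and 14.7 FPKM in intact pigs. RGC32 lay nearest to MGLL, SVIP to PNPLA3, BRP44L to CIDEC, SPECC1L to PDE3B and SCAP to PLIN2.

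Listed markers of several cell types passed the size rule, and their counts stand against the same 40.9% higher and 39.3% lower among all listed genes. In bulk tissue a difference in the number of cells of a type and a difference in RNA per cell cannot be told apart. Of 15 adipocyte markers 9 were listed, 7 higher and 2 lower in castrated pigs, and their summed level was 3395 FPKM in castrated pigs and 704 FPKM in intact pigs. THRSP carried most of that sum, and without it the sum was 1056 FPKM in castrated pigs and 501 FPKM in intact pigs. LEP, THRSP and ACACA had the largest differences, while CFD and PCK1 were lower. The adipocyte markers ADIPOQ, FABP4, LPL and LIPE had no listed transcript. Of 13 fibroblast and progenitor markers 6 were listed and all 6 were lower, with a summed level of 1721 FPKM in castrated pigs and 16301 FPKM in intact pigs, led by COL1A1, DCN and MFAP5.

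Markers of blood and vessel cells were listed in smaller numbers. Of 8 erythroid markers 3 were listed (HBB, ALAS2 and HBM), all higher, with a sum of 1394 FPKM in castrated pigs and 132 FPKM in intact pigs. HBB made up nearly all of it, at 1383 FPKM in castrated pigs and 130.2 FPKM in intact pigs, and with a pseudocount of 5 only 1 of the 3 passed. Of 18 macrophage markers 3 were listed, SPP1 and LYZ higher and LGALS3 lower, with a sum of 255 FPKM in castrated pigs and 166 FPKM in intact pigs. Without LGALS3 the macrophage sum was 190 FPKM in castrated pigs and 11.4 FPKM in intact pigs, most of it SPP1. The direction of the sum over all 3 rests on SPP1, at 154 FPKM in castrated pigs and 7.64 FPKM in intact pigs. LGALS3 stood at 64.6 FPKM in castrated pigs and 155 FPKM in intact pigs, and LYZ at 36.4 FPKM and 3.75 FPKM. Of 14 T and NK lymphocyte markers 4 were listed, all higher, led by KLRK1, CD2 and CD3E, with a sum of 18.5 FPKM in castrated pigs and 4.83 FPKM in intact pigs. These are low genes: 0 of the 4 passed as higher with a pseudocount of 5, 1 after median centring and 2 with a minimum of 5 FPKM. Of 11 smooth muscle and pericyte markers 6 were listed, 4 lower and 2 higher, with CNN1, DES and MCAM having the largest differences and a sum of 173 FPKM in castrated pigs and 135 FPKM in intact pigs. The direction of that sum rests on RGS5, at 130.0 FPKM in castrated pigs and 46.5 FPKM in intact pigs, and without it the sum was 42.9 FPKM in castrated pigs and 88.5 FPKM in intact pigs. With a pseudocount of 5, 2 of the 4 lower genes passed as lower.

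The remaining marker lists had few listed genes. EGFL7 was the one listed of 10 endothelial markers, at 4.48 FPKM in castrated pigs and 13.1 FPKM in intact pigs. TCAP was the one listed of 11 skeletal muscle markers, at 1.32 FPKM in castrated pigs and 4.76 FPKM in intact pigs. The one match of 7 B cell markers was a gene the table names CR2, at 0.628 FPKM in castrated pigs and 11.7 FPKM in intact pigs. Of 10 skin epithelial markers 3 were listed, with PPL lower, EVPL higher and KRT8, at a log2 difference of -0.998, just short of the rule. Their sum was 5.79 FPKM in castrated pigs and 28.7 FPKM in intact pigs. Most of that difference rests on PPL, and without it the sum was 2.18 FPKM in castrated pigs and 2.59 FPKM in intact pigs. With a pseudocount of 5 neither EGFL7, TCAP nor EVPL passed. No listed marker gene was at 0 in either group. The part of these cell types in the levels of the member genes was not tested.

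**Figure D4:**
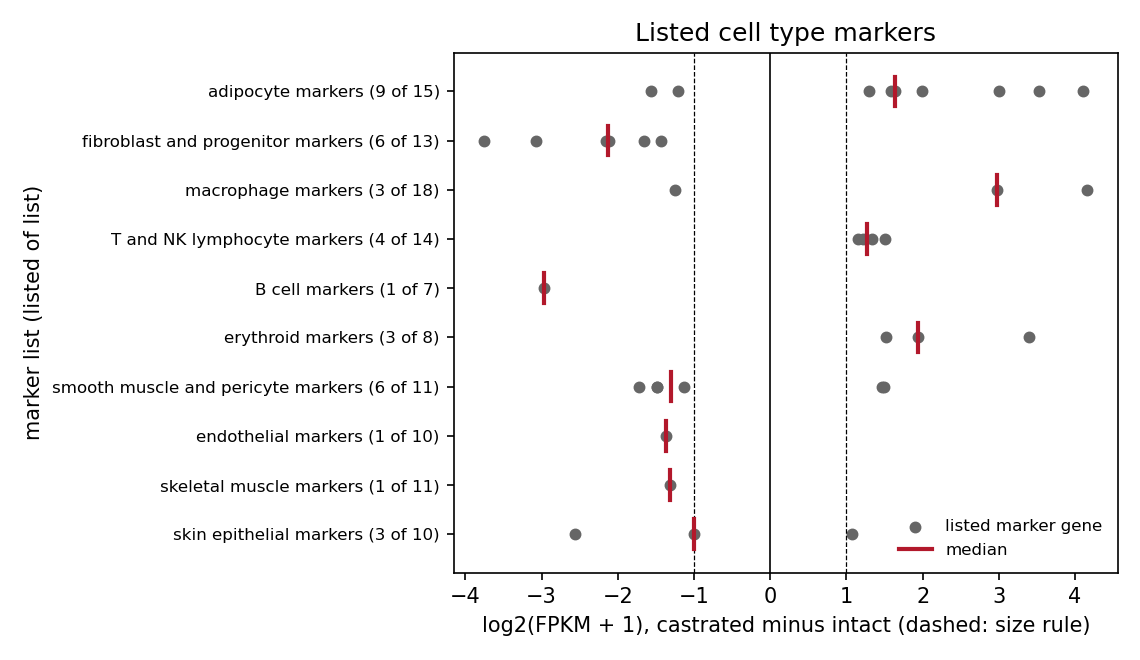
Difference on the log2(FPKM + 1) scale, castrated minus intact, of each listed marker gene (grey points) with the median of its list (red line), by cell type, with the number of listed genes of those on the list in parentheses. The adipocyte median is at 1.63 and the fibroblast and progenitor median at -2.13; 1 gene alone stands for the B cell, endothelial and skeletal muscle lists.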

How the data were processed

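Backfat RNA of castrated and intact pigs was compared, with 1 sample and 1 value per group. TopHat2, Cufflinks and the build Sscrofa10.2 are given, without role or version, per the submitters' processing notes. Per the file headers, the authors deposited FPKM per transcript, a log2 fold change (log2 of the FPKM ratio, infinite where a group is at 0), and a p-value and q-value per transcript, all q-values being below 0.05. Sequencing depth is unknown, so no interval was computed.

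FPKM was summed over a gene's listed transcripts, which is not its total expression. A LOC identifier was replaced by the RefSeq symbol (Sscrofa11.1) of the same gene ID, for 157 lines. 87.6% of lines matched that table by gene ID. The size rule used a pseudocount of 1, 2-fold and a minimum of 1 FPKM, taken over the higher of the groups. It was checked on simulated data in which changes were well past 2-fold and low genes were left out. That check does not cover low genes, changes near 2-fold or a spread between animals. No test was possible. Pseudocounts of 0.1 and 5, no minimum or 5 FPKM, median centring, the highest transcript per gene and, added after seeing the data, gene names as listed were tried.

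The members and lists were chosen with earlier results of these data known. Named genes were all members, the listed genes of the pathway lists, up to 3 markers per list with the largest absolute difference, and the gene nearest to each member. CFD, PCK1, RGS5, PPARD, PPARA, RXRG, CYP7A1 and PPAP2B were named after their values were seen, and some genes because they had no listed transcript. The circular RNA table pairs no RNA with a gene and was not used, and of the 18 listed lncRNAs 0 had a member as neighbouring gene. Member sequences were not used here. Python 3.11.15, numpy 2.4.6, pandas 2.3.3 and matplotlib 3.10.9 were used.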

Additional observations from a re-analysis of the deposited data

How the results depend on the processing

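Alternatives were judged by the size rule, and no direction of a member that passed it was reversed under any alternative run. Under median centring 4 of the member transcripts were higher, against 9 without it (PLIN1, both CIDEC transcripts, the 1872-base PLIN2 transcript and PDE3B dropped out), and of the summed member genes PLIN1 and CIDEC dropped out. With a pseudocount of 5 the pathway lists held 4 lower genes, against 7, and the marker lists 11 higher genes, against 19, while the 1872-base PLIN2 transcript had a log2 difference of 0.99. The cause is the construction of these settings: centring subtracts a positive median, and a larger pseudocount shrinks differences of low genes. The other 45 counts over members, over the 4 pathway lists together and over the marker lists together stayed within 1.5 times of the counts given. Single lists moved further, and T and NK lymphocyte markers went to 0 higher with a pseudocount of 5. With that pseudocount 19.5% of listed genes passed as higher and 16.3% as lower. With a minimum of 5 FPKM these shares were 26.9% and 25.1%. For the centred member transcripts no such share of listed transcripts was computed, so their count of 4 is not read as a result. No paired analysis was possible because each group has 1 value. The planned ratio of circular RNA reads was not run, since no circular RNA could be tied to a member. The depth behind FPKM is unknown, and no spread between animals is available for any difference.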

Other observations

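AQP7 and AQP3 are next to each other among the protein-coding genes of the RefSeq assembly Sscrofa11.1, a different build from that of the files. Of the 14 protein-coding genes directly beside the 7 members there, AQP3 alone had a listed transcript. The opposite directions of AQP7 and AQP3 were therefore a difference between adjacent genes for channels of the same kind.

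The accession of the PDE3B transcript and that of the 3464-base MGLL transcript have no entry in the RefSeq table of Sscrofa11.1, while the other 8 member transcripts do. That table lists 7 mRNA accessions for AQP7 and 5 each for PLIN2 and CIDEC, against 1, 2 and 2 transcripts listed here.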
